A study of Arabidopsis thaliana with 6 samples.

Results

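Pentatricopeptide repeat (PPR) proteins are encoded in the nucleus, and nearly all of them work in chloroplasts or mitochondria. Each repeat is a pair of helices that reads 1 base of RNA, so a tandem array of repeats binds 1 or a few organelle transcripts and guides their editing, splicing, end processing, stabilisation or translation. In leaves they are known for preparing plastid transcripts of photosynthesis and of the plastid gene expression machinery, usually from transcripts of low abundance.

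The PPR genes described here are those of a list of 459 nuclear loci, written from general knowledge of which genes TAIR and the literature describe as PPR or PPR-like. Neither the gene table nor the array annotation used here gives family descriptions, so membership could not be checked against them, although all 459 loci are in the gene table. Of these, 314 had a probe set paired with a single gene, among 13513 such probe sets and 22746 probe sets in all. Tetratricopeptide-only proteins were left out. After the filter on dim probe sets, 228 PPR genes were tested and 86 were too dim. Only 16 of the 314 carry a symbol of their own in the gene table, and the others are named by locus and given no individual role.

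The samples were Arabidopsis thaliana plants, 2 weeks old, of the ceh1 mutant and of the parent line it comes from, labelled wild type, with 3 biological replicates per genotype and 1 one-colour Affymetrix array each. RNA came from about 20 plants, and the labels do not say whether per sample or in all. HDS, the enzyme of the plastid isoprenoid pathway that is known to be altered in ceh1, was not analysed here. Both genotypes grew on 1/2 MS medium at 23 °C and 60% humidity. Days were short, with 8 h light at 100 to 150 µE and 16 h dark. Both also had 2 days of cold at 4 °C, so they differ in genotype only as far as the labels tell.

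The deposited array levels differed by up to 1.60-fold in trimmed mean intensity, and values below are quantile-normalised log2(intensity + 2), called log2 signals. Fold changes are ceh1 minus parent on that scale, which understates the change of dim genes. The 25S ribosomal RNA control signal was 293.7 to 985.4 in the parent and 1132 to 4598 in ceh1. The log2 ratio of 3' to 5' actin signal was 4.30 to 4.49 in the parent and 4.02 to 4.12 in ceh1. PYK10, the 1 tested root marker, gave log2 signals of 9.49, 9.83 and 8.62 in parent plants and 10.46, 10.62 and 10.50 in ceh1 plants. The other root marker with a single-gene probe set, EXPA7, was too dim to be tested. Its mean log2 signal went the other way, 3.07 in parent plants and 2.32 in ceh1 plants, with overlapping arrays. The 25S signal, the actin ratio and PYK10 separate the genotypes without overlap, and their part in the values below was not tested. In RNA of entire plants, fewer cells of a type and less RNA per cell cannot be told apart.

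The median fold change of the PPR genes as a family was close to that of all tested probe sets. Of the 228 tested, 0 passed the test (limma, adjusted p under 0.05 over all 15922 tested probe sets), against 3.77% of all tested probe sets. At an unadjusted p under 0.05 there were 23 PPR genes, 7 higher and 16 lower in ceh1, or 10.1%, against 20.9% of all probe sets (9.41% higher, 11.5% lower). The median log2 fold change was −0.05 for PPR genes and −0.03 for all tested probe sets. With each array left out in turn the PPR median ran from −0.11 to 0.03, across 0. The quartiles of the PPR genes lay at −0.27 and 0.19, slightly closer together than the −0.33 and 0.24 of all probe sets. A fold change below 0 was found in 126 of the 228 PPR genes, or 55.3%, and in 53.3% of all probe sets. Replicates of the genotypes did not overlap for 35 PPR genes, 12 higher and 23 lower in ceh1. These are 5.26% and 10.1% of the family, against 12.4% and 15.1% of all probe sets, or 27.5% in either direction.

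Fold changes of 2 or more were measured for 6 PPR genes, 1 higher and 5 lower, or 2.63%, against 8.92% of all probe sets (5.37% higher, 3.55% lower). The 1 higher gene, AT3G03580, was dim and its replicates overlapped between genotypes, with a log2 fold change of 1.15 (limma, adjusted p = 0.301). The arrays set limits on how large a change could have gone unseen. For 113 of the 228 PPR genes the 95% interval of the fold change lay wholly within 2-fold in either direction, against 58.9% of all probe sets. For another 64 it reached only past 2-fold lower, for 46 only past 2-fold higher, and for 5 past both. The median half-width of the interval was 0.71 log2 units.

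**Figure D1:**
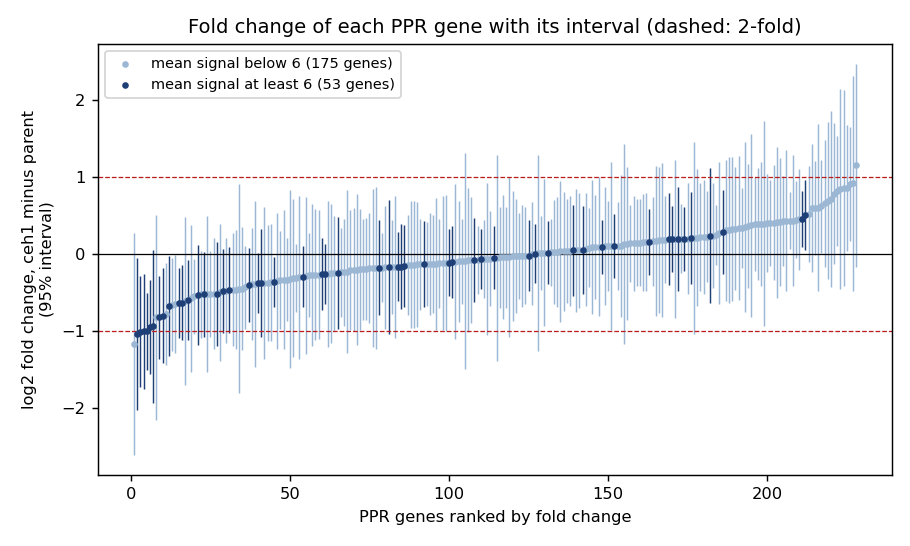
Log2 fold change (ceh1 minus parent) of each of the 228 tested PPR genes, ranked from lowest to highest, with its 95% interval from limma. Dark points are the 53 genes with a mean log2 signal of at least 6, pale points the 175 dimmer ones, and dashed lines mark 2-fold. Most intervals include 0, and the dark points gather toward the left.

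PPR transcripts were dim. Their median log2 signal was 4.93, against 6.76 for all tested probe sets, and 175 of the 228 had a mean log2 signal below 6. The median standard deviation within a genotype was 0.36 for PPR genes and 0.29 for all probe sets. Among the 175 dim PPR genes the median fold change was −0.02, and 10 were higher and 8 lower in ceh1 without overlap, or 5.71% and 4.57%. For all tested probe sets of that level the shares were 11.2% and 13.8%. An unadjusted p under 0.05 (limma) was reached by 9 dim PPR genes, or 5.14%, against 18.9% of all probe sets of that level.

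The 53 brighter PPR genes, with a mean log2 signal of at least 6, leaned toward lower values in ceh1. Their median log2 fold change was −0.17, against −0.02 for all probe sets of that level, and 37 of the 53, or 69.8%, had a fold change below 0, against 52.1% of all probe sets of that level. Replicates did not overlap for 15 lower and 2 higher genes, or 28.3% and 3.77%, against 15.7% and 13.0% of all probe sets of that level. An unadjusted p under 0.05 (limma) was reached by 12 lower and 2 higher genes, together 26.4%, against 21.9% of all probe sets of that level. The median log2 signal of the 53 was 7.11, 7.03 and 7.16 on the parent arrays and 6.88, 6.62 and 6.82 on the ceh1 arrays. All 3 ceh1 arrays thus lay below the parent arrays, with ceh1 replicate 2 the lowest. The division at 6 was chosen after the values were seen, so these shares are a description. Without normalization between arrays the median of the 53 was 0.07, while its difference from the median of all probe sets of the same level was −0.15 with and without normalization. With each array left out in turn that difference ran from −0.26 (without ceh1 replicate 1) to −0.11 (without parent replicate 3), and was −0.25 without parent replicate 2. The median itself ran from −0.27 to −0.13.

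**Figure D2:**
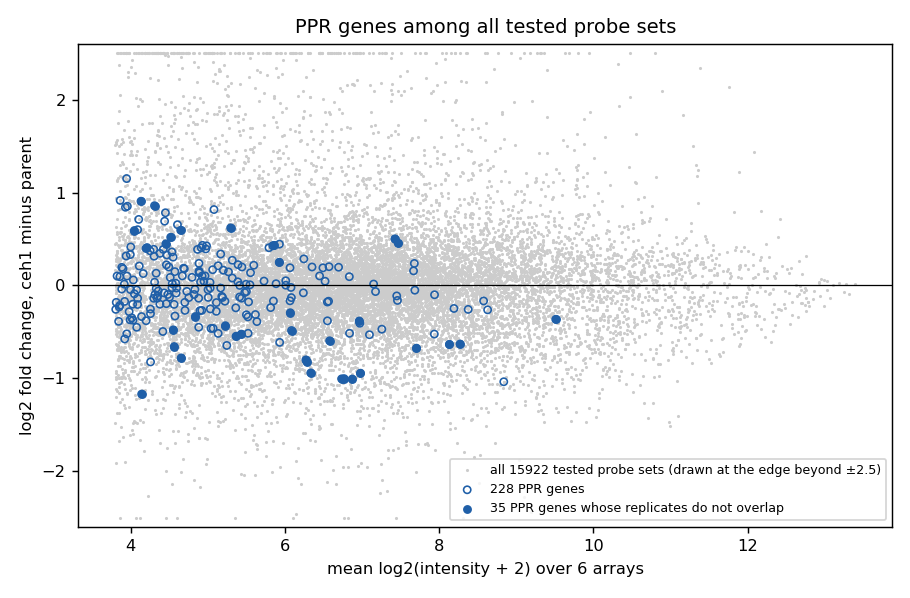
Log2 fold change (ceh1 minus parent) against mean log2 signal over the 6 arrays for all 15922 tested probe sets (grey) and the 228 PPR genes (blue circles). Filled circles are the 35 PPR genes whose replicates do not overlap between genotypes. Filled circles below 0 are more frequent at a signal above 6, and most PPR genes lie at the dim end.

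Of the 14 tested PPR genes that carry a symbol, 9 had a fold change below 0, as had 53.3% of all tested probe sets. The adjusted p of limma ran from 0.101 to 0.947, so none of them passed. Most act in editing, in which a PPR protein marks a cytidine of an organelle transcript for conversion to uridine.

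CRR21, an editing factor of the plastid ndhD transcript, gave log2 signals of 7.33, 7.40 and 7.41 in parent plants and 6.52, 5.66 and 6.92 in ceh1 plants. After normalization all 3 ceh1 arrays were below the parent arrays, which were tightly grouped, while the ceh1 arrays spread widely. The deposited intensities were 184.1, 149.7 and 122.5 in parent plants and 81.2, 56.8 and 144.6 in ceh1 plants. There ceh1 replicate 3 lay above parent replicate 3. The log2 fold change was −1.01 ± 0.31 (SE, n = 3 per genotype), with a 95% interval of −1.73 to −0.29 (limma, adjusted p = 0.127). It was −0.65 without ceh1 replicate 2 and −0.76 without normalization between arrays. LPA66, which edits the psbF transcript of photosystem II, had 6.77, 6.49 and 6.84 in parent plants and 6.30, 5.64 and 5.69 in ceh1 plants. The genotypes of LPA66 did not overlap, before or after normalization. The log2 fold change was −0.82 ± 0.23 (SE), with an interval of −1.36 to −0.29 (limma, adjusted p = 0.101).

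The other tested plastid editing factors that carry a symbol in the gene table overlapped between genotypes. CRR28, an editing factor of ndhB and ndhD, gave log2 signals of 5.58, 5.86 and 5.88 in parent plants and 5.61, 5.32 and 5.45 in ceh1 plants, with a log2 fold change of −0.31 and an interval of −0.76 to 0.13. CRR22, which edits ndhB, ndhD and rpoB, had 4.63, 5.33 and 5.76 in parent plants and 4.55, 5.28 and 5.53 in ceh1 plants. In CRR22 the spread within each genotype was far wider than the log2 fold change of −0.12. OTP84, an editing factor of ndhB, ndhF and psbZ, had a log2 fold change of −0.24, with a parent range of 5.61 to 6.53. OTP85, an editing factor of ndhD, and OTP81, another plastid editing factor, had fold changes of 0.09 and 0.39 in log2. OTP81 ranged from 3.74 to 5.89 in the parent and from 4.69 to 5.92 in ceh1, the widest parent spread of the 14 genes. OTP80 and OTP86, editing factors of rpl23 and rps14, were too dim to be tested, with mean log2 signals in the parent of 2.24 and 3.10. OTP70, needed for splicing of plastid rpoC1, had 5.65, 4.59 and 5.66 in parent plants and 4.79, 5.01 and 4.71 in ceh1 plants. Parent replicate 2 was below all ceh1 arrays for OTP70 and the other parent arrays were above them, and the log2 fold change was −0.46 with an interval of −1.24 to 0.31, running from −0.82 to −0.28 with an array left out.

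The mitochondrial members did not share a direction. PPR336, a protein associated with mitochondrial ribosomes, gave log2 signals of 7.11, 7.41 and 7.01 in parent plants and 7.44, 7.88 and 7.72 in ceh1 plants. After normalization all ceh1 arrays were above the parent arrays, by a narrow margin between ceh1 replicate 1 and parent replicate 2. In the deposited intensities ceh1 replicate 1 (153.2) lay below parent replicate 1 (156.1). The log2 fold change was 0.50 ± 0.19 (SE), with an interval of 0.05 to 0.95 (limma, adjusted p = 0.199). PPR596, which limits editing of mitochondrial rps3, had 6.45, 6.71 and 6.79 in parent plants and 7.04, 5.58 and 6.82 in ceh1 plants. For PPR596 ceh1 replicate 2 alone lay below the parent and the other ceh1 arrays lay above it. The log2 fold change was −0.17 with that array and 0.28 without it. OTP43, needed for splicing of mitochondrial nad1, OTP87, a mitochondrial editing factor, and MEF8S, a close relative of the editing factor MEF8, had log2 fold changes of 0.06, 0.30 and −0.05, with overlapping arrays. LOJ, a gene active at the junctions of lateral organs, was the dimmest of the 14, with a log2 fold change of −0.39 and an interval of −1.46 to 0.69, and −0.063 without ceh1 replicate 2.

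**Figure D3:**
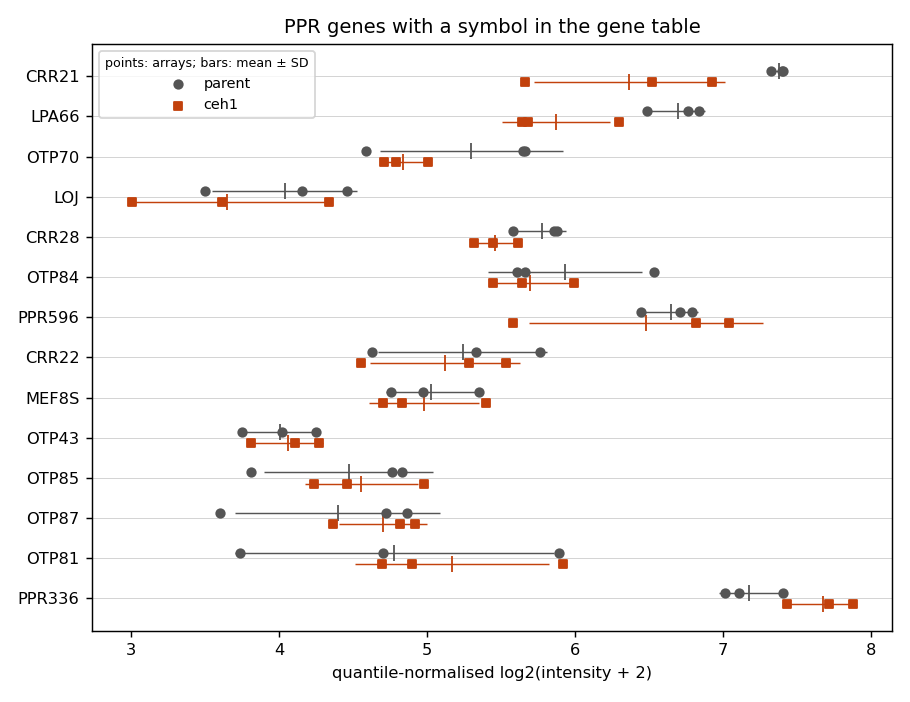
Quantile-normalised log2(intensity + 2) of the 14 tested PPR genes with a symbol, ordered by fold change from lowest (CRR21) to highest (PPR336). Circles are the 3 parent arrays and squares the 3 ceh1 arrays, with bars for the mean and SD. Only CRR21, LPA66 and PPR336 show genotypes that do not overlap. Of all tested probe sets, 27.5% do not overlap, in either direction.

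Among all 228 PPR genes, AT3G05340 on chromosome 3 had the lowest adjusted p, just above the threshold (limma, adjusted p = 0.0501). Its log2 signals were 7.50, 7.08 and 7.23 in parent plants and 6.37, 5.92 and 6.50 in ceh1 plants, a log2 fold change of −1.004 ± 0.21 (SE) with an interval of −1.50 to −0.50. In the deposited intensities the same probe set read 207.6, 120.5 and 108.6 in parent plants and 73.3, 69.4 and 107.6 in ceh1 plants. Parent replicate 3 and ceh1 replicate 3 thus nearly touch before normalization. Over the alternatives tried, its adjusted p from limma lay between 0.0210 and 0.340. Without normalization between arrays the log2 fold change of AT3G05340 was −0.76.

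The count of PPR genes past the threshold was 1, AT3G05340, with median scaling (4.28% of all probe sets passed), pseudocount 8 (4.11%) and robust eBayes (3.72%). With array weights, where 11.4% of all probe sets passed, it was 4. It was 0 with pseudocount 1 (3.57% of all probe sets), no filter (2.3%), the filter at the 50th percentile (3.38%), no normalization (4.51%) and no variance trend (3.07%). It was also 0 without parent replicate 1 (1.06%), 2 (0.955%) or 3 (4.25%) and without ceh1 replicate 1 (2.91%), 2 (1.86%) or 3 (1.1%).

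The next lowest adjusted p belonged to AT1G31920, with log2 signals of 7.55, 7.75 and 7.05 in parent plants and 6.93, 6.33 and 6.26 in ceh1 plants. After normalization parent replicate 3 and ceh1 replicate 1 lay close together and the other arrays stood well apart. The log2 fold change was −0.95 ± 0.26 (SE) (limma, adjusted p = 0.0998). In the deposited intensities ceh1 replicate 1 (107.3) lay above parent replicate 3 (96.2). AT3G22150 had 7.22, 7.004 and 7.49 in parent plants and 6.54, 5.52 and 6.64 in ceh1 plants, and a log2 fold change of −1.01 (limma, adjusted p = 0.134), which was −0.64 without ceh1 replicate 2. Before normalization ceh1 replicate 3 (118.1) lay above parent replicate 2 (113.8) for AT3G22150. AT3G14330 had a log2 fold change of −0.80, from a parent mean of 6.67 ± 0.15 (SD, n = 3) to 5.87 ± 0.49 (SD, n = 3). Before normalization ceh1 replicate 1 (75.3) lay above parent replicate 3 (66.4) for AT3G14330. As in CRR21 and AT3G22150, the lowest of its arrays was ceh1 replicate 2. That array was the lowest of the ceh1 arrays in 10 of the 23 PPR genes that were lower without overlap, ceh1 replicate 3 in 9 and ceh1 replicate 1 in 4.

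In 2 other genes with low fold changes single arrays stood apart. AT5G59900 had the lowest value of all PPR genes, −1.17 in log2, with an interval of −2.61 to 0.27. Its signals were 4.62, 4.70 and 4.86 in parent plants and 2.04, 4.33 and 4.30 in ceh1 plants. Without ceh1 replicate 1 the log2 fold change of AT5G59900 was −0.42. Its deposited intensity in ceh1 replicate 3 (21.9) lay above that in parent replicate 2 (21.4). AT5G02830 had 6.46, 6.46 and 7.50 in parent plants and 6.39, 5.03 and 6.17 in ceh1 plants, a log2 fold change of −0.94 with an interval of −1.94 to 0.05. Parent replicate 3 was high and ceh1 replicate 2 low for AT5G02830, and its log2 fold change was −0.52 without the latter and −0.60 without the former.

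The highest fold changes among PPR genes with separated replicates were smaller and came mostly from dim probe sets. AT2G03380 gave log2 signals of 3.41, 3.69 and 3.94 in parent plants and 4.93, 4.48 and 4.35 in ceh1 plants, a log2 fold change of 0.91 ± 0.32 (SE) (limma, adjusted p = 0.165). For AT3G04130 the value was 0.86, where parent replicate 2 stood below the other parent arrays, and 0.55 without that array. AT1G71210, AT5G65560, AT3G62890 and AT1G03100 followed, with log2 fold changes of 0.62, 0.59, 0.59 and 0.52 and mean log2 signals from 4.05 to 5.30. Of these, AT3G62890 was at 0.36 without ceh1 replicate 1 and AT1G03100 at 0.34 without parent replicate 1. For AT1G71210 the deposited intensity of ceh1 replicate 1 (36.3) lay below that of parent replicate 1 (39.0). AT4G35850 was the brightest of this group. Its signals were 7.20, 7.13 and 7.40 in parent plants and 7.69, 7.68 and 7.72 in ceh1 plants, so the ceh1 arrays almost coincided. Its log2 fold change was 0.45 ± 0.16 (SE), with an interval of 0.09 to 0.82 (limma, adjusted p = 0.158).

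**Figure D4:**
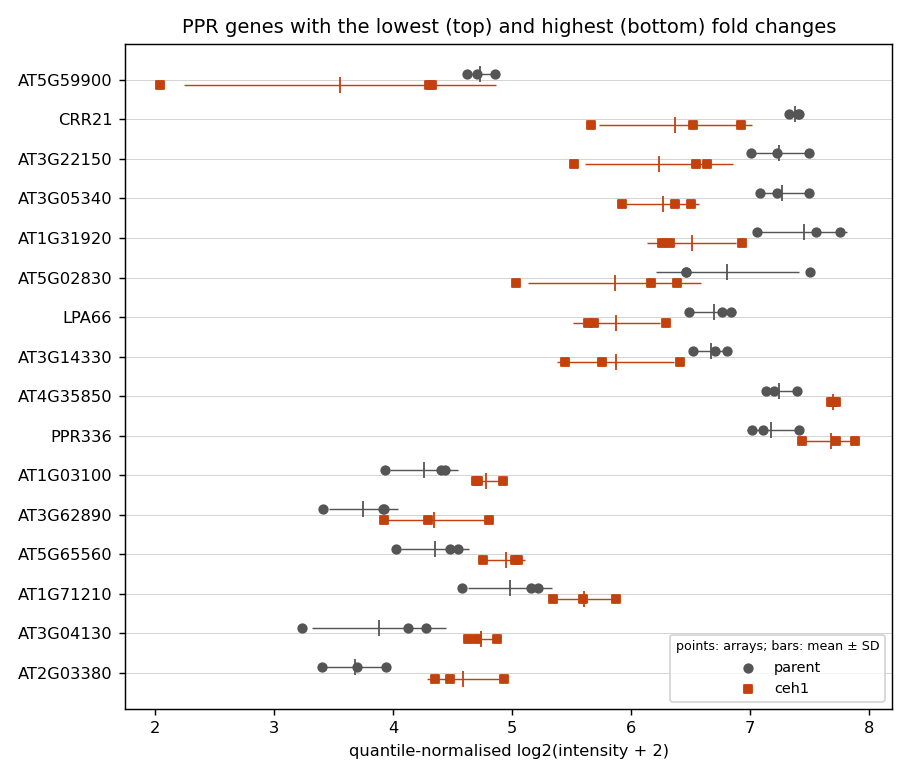
Quantile-normalised log2(intensity + 2) of the 8 PPR genes with the lowest fold changes (top) and the 8 with the highest (bottom), among genes whose replicates do not overlap. Circles are the 3 parent arrays and squares the 3 ceh1 arrays, with bars for the mean and SD. All upper genes but AT5G59900 have a mean signal above 6, while PPR336 and AT4G35850 alone do so among the lower genes.

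The 5 brightest PPR genes all had fold changes below 0, as had 51.2% of all probe sets with a mean log2 signal of at least 7. AT1G02150, the brightest, gave log2 signals of 9.69, 9.75 and 9.64 in parent plants and 9.36, 9.33 and 9.29 in ceh1 plants. After normalization both genotypes were tightly grouped and clearly separated. The log2 fold change was −0.37 ± 0.14 (SE), with an interval of −0.69 to −0.04 (limma, adjusted p = 0.194). In the deposited intensities the genotypes overlapped, at 965, 800 and 597 in parent plants and 575, 760 and 735 in ceh1 plants. Without normalization between arrays the log2 fold change of AT1G02150 was −0.17. AT5G13770 had 9.59, 9.81 and 8.67 in parent plants and 9.15, 7.94 and 7.87 in ceh1 plants. Parent replicate 3 fell within the ceh1 range for AT5G13770, and the log2 fold change of −1.04 had an interval of −2.02 to −0.06. AT5G25630, AT3G04760 and AT3G59040 had log2 fold changes of −0.26, −0.17 and −0.26 with overlapping arrays. Without normalization between arrays these were −0.05, 0.06 and −0.02. AT5G04810, chosen after its values were seen, had 8.59, 8.57 and 8.59 in parent plants and 7.99, 8.30 and 7.58 in ceh1 plants, with a log2 fold change of −0.63 (limma, adjusted p = 0.149). AT5G04810 was past the threshold with array weights (limma, adjusted p = 0.0343), where 11.4% of all probe sets passed.

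PPR genes of the 5 chromosomes differed little, with median log2 fold changes from −0.08 on chromosome 4 to −0.02 on chromosome 1, which holds 73 of the 228. Of the 459 listed loci, 31 lie next to another listed locus in the TAIR10.1 order of protein-coding genes, in 15 runs. In 5 runs 2 neighbours were tested, and in 4 of these both values had the same sign. These values were −0.78 and −0.05 for AT2G20710 and AT2G20720, and −0.03 and −0.17 for AT3G04750 and AT3G04760. They were 0.10 and 0.20 for AT3G13150 and AT3G13160, and 0.59 and 0.10 for AT5G65560 and AT5G65570. Neither agreement in sign nor differences in size between neighbours was tested. Of all tested probe sets, 53.3% had a fold change below 0. AT3G22670 and AT3G22690 had opposite signs, at 0.41 and −0.37.

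Organelle transcripts that PPR proteins bind or edit were given by a list of 12 plastid loci, of which 10 had a tested probe set, and 0 passed (limma, lowest adjusted p = 0.188). At an unadjusted p under 0.05 there were 3, psbH, accD and rpoB, with log2 fold changes of −0.37, −0.40 and −0.51, each lower in all ceh1 arrays than in any parent array. Of the 10, psbF was also lower in all ceh1 arrays than in any parent array, though not at that p. An unadjusted p under 0.05 was reached by 20.9% of all tested probe sets, 11.5% being lower in ceh1, and 15.1% were lower without overlap. The level of a transcript says nothing of how far it is edited. The target of CRR21, ndhD, gave log2 signals of 12.60, 12.53 and 12.76 in parent plants and 12.66, 12.65 and 12.58 in ceh1 plants, a log2 fold change of 0.00. The target of LPA66, psbF, had 12.02, 11.94 and 11.77 in parent plants and 11.74, 11.65 and 11.65 in ceh1 plants. The genotypes of psbF were separated by a narrow margin, with a log2 fold change of −0.23 (limma, adjusted p = 0.373). For rpoB, which encodes a subunit of the plastid RNA polymerase, the adjusted p of limma was 0.214.

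Few other nuclear genes of organelle RNA metabolism had a single-gene probe set in the annotation used. Of 61 listed, 11 had a tested single-gene probe set, and 0 passed in limma, against 3.77% of all tested probe sets. At an unadjusted p under 0.05 there were also 0, against 20.9%. The median log2 fold change of the 11 was −0.26, and that of all probe sets −0.03. All 4 tested CRM-domain splicing factors had fold changes below 0, from −0.40 for CAF1, which acts in the splicing of plastid group II introns, to −0.22 for CFM3B. The largest absolute values elsewhere were 0.34 for AT5G14580 in the ribonuclease list and −0.33 for AT2G37220 in the list of chloroplast RNA-binding proteins. AT5G55580, in the list of mTERF and other helical repeat proteins, had −0.30. AT5G15700 in the transcription list and AT1G32580 in the list of editing partners were the 1 tested member of each, at −0.13 and −0.05.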

How the data were processed

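Per the submitters' processing notes, the deposited intensities were made by the authors with MAS5 (version and settings: not given in the sources used here). From 22810 probe sets 64 controls were set aside. Values were transformed as log2(intensity + 2) and quantile normalised, and the dimmest 30% of probe sets by mean, those under log2 3.80, were not tested. Genotypes were compared over 15922 probe sets with limma 3.58.1 in R 4.3.3 (eBayes with a variance trend, two-sided, Benjamini-Hochberg adjustment). The fit was also run on simulated data, with changes larger than that of any tested PPR gene. That run therefore does not show how often changes of the size measured for PPR genes would be found. Members were found through the platform annotation and the TAIR10.1 gene table (13436 of 13513 single-gene probe sets matched) from a hand-written list of loci. Members and lists were chosen with earlier results of these data known. Genes named were the 8 highest and 8 lowest with separated replicates, those with a symbol in the gene table, the 5 brightest, and in each partner list the largest change. Others were chosen after their values were seen. Roles fixed for loci without a symbol were not used. The 8 dividing-cell markers had no single-gene probe set in the annotation used, and of 9 root markers 2 had one, EXPA7 being too dim. For arrays there is no read depth, and their number limits the precision. Alternatives were pseudocounts, filters, normalizations, variance models, array weights, a replicate block and each array left out. No protein or promoter sequence was used here.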

Additional observations from a re-analysis of the deposited data

How the results depend on the processing

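PPR genes past the threshold numbered 4 with array weights (AT3G05340, AT1G31920 and AT5G04810 lower, AT4G35850 higher), 3 with the replicate block (AT3G05340, AT1G31920 and AT3G22150, lower in ceh1), 1 (AT3G05340) with pseudocount 8, median scaling or robust eBayes, and 0 under the other alternatives. Over all probe sets the 600 calls became 1815 with array weights, 384 with the 50th percentile filter and 1160 with the replicate block, and ran from 152 (without parent replicate 2) to 676 (without parent replicate 3) with an array left out. Leaving out parent replicate 1 gave 168, and leaving out ceh1 replicate 2 or 3 gave 296 or 175. Same-numbered arrays of the genotypes had correlations of deviations of 0.27, 0.06 and 0.47 for replicates 1, 2 and 3. Pairs with different numbers ran from −0.40 to 0.34. The labels name no shared batch, and whether same-numbered arrays form pairs was not tested. The median of the PPR genes was −0.17 with the 50th percentile filter, which tests only 63 of them (−0.14 less all probe sets), and 0.21 without normalization, where the median of the brighter 53 was 0.0699. Among named genes that did not pass, signs turned with array weights for OTP84 (0.00429), PPR596 (0.138), OTP43 (−0.0458), CRR22 (0.149), OTP85 (−0.0744) and LOJ (0.0351), and without normalization for AT3G04760 (0.0626), OTP84 (0.0304), MEF8S (0.225), PPR596 (0.0699) and CRR22 (0.179). With an array left out the ranges that crossed 0 were −0.40 to 0.0612 for OTP84, −0.46 to 0.28 for PPR596, −0.42 to 0.17 for CRR22, −0.25 to 0.12 for MEF8S, −0.0723 to 0.19 for OTP43, −0.25 to 0.26 for OTP85, −0.10 to 0.55 for OTP87 and −0.13 to 0.97 for OTP81. The cause of these differences was not tested. In all, 460 of the other comparisons of a named gene with an alternative kept their direction and side of the threshold. The alternatives for members split by protein end could not be run without protein sequences, and no member had a probe set of the kind that binds several transcripts, so leaving those out changes nothing.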

Other observations

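The 86 PPR genes left out as dim had mean log2 signals from 1.63 to 3.79, with a median of 3.28. The genes nearest the filter level were AT3G16610 (3.79) just below it and AT3G26540 (3.81) just above it. Differences between genotype means of the 86 ran from −1.26 for AT2G46050 to 1.94 for AT3G09060. AT3G09060 gave 2.76, 1.73 and 1.35 in parent plants and 2.69, 4.41 and 4.54 in ceh1 plants, so ceh1 replicate 1 lay within the parent range.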
